A study of Mus musculus with 9 samples.

Results

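The 10 genes described here encode regulators of the ATF4 and CHOP branch of the cellular stress response: Atf4, Atf3, Atf5, Ddit3 (which encodes CHOP), Trib3, Chac1, Sesn2, Nupr1, Cebpb and Cebpg. They were chosen by name from 54532 gene IDs in a table of FPKM (fragments per kilobase, scaled by mapped reads), a level corrected for gene length and depth, by a rule that uses no measured value, although they were proposed with earlier results of these data known. All 10 were among the 13245 genes tested, for which a mean of 0.5 FPKM or more was required. Libraries were made from wild-type HT22 cells, an immortalized line derived from mouse hippocampal neurons, in 3 groups of 3. OGE cells went through 2 h of oxygen-glucose deprivation (OGD) and 24 h of reoxygenation with extracellular vesicles from mesenchymal stem cells that had been derived from human induced pluripotent stem cells (hiPS-MSC-EVs). OGP cells had the same deprivation and reoxygenation with PBS, and control cells were not treated. Every group shared the line, the high-glucose medium of its standard culture and the selection of mRNA with poly-T beads. During OGD, by the paper's methods, the medium held no glucose and no serum. The sources give EV doses for the cell assays but do not tie one to the sequenced libraries, and they differ on the serum in the medium after OGD, so whether serum differed between OGE and OGP is not known.

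ATF4 is a transcription factor of the integrated stress response. In that response, kinases that sense misfolded protein, lack of amino acids, lack of haem or double-stranded RNA phosphorylate the initiation factor eIF2, which lowers protein synthesis in general, while the ATF4 message is translated better because of small reading frames in its leader. ATF4 pairs with C/EBP proteins on CARE sites (C/EBP-ATF response elements) and switches on genes of amino acid uptake and synthesis, together with further regulators such as CHOP, ATF3, ATF5, TRIB3, CHAC1, SESN2 and NUPR1. CHOP is known as the factor through which long stress of the endoplasmic reticulum leads to cell death, and the response is known in neurons deprived of oxygen. Only mRNA was measured here, so the phosphorylation of eIF2 and the amount of ATF4 protein were not.

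The reads in genes implied by the deposited values numbered 15026700 to 19476806 per library, and the members rested on 124 reads (Atf3) to 14478 reads (Atf4) in a library. Mitochondrial transcripts took 2.03% to 2.90% of these reads in OGE, 2.45% to 3.25% in OGP and 1.10% to 2.31% in control libraries, and the part of this in the members' levels was not tested. Of 14 neuron markers, 10 stayed under 0.5 FPKM in every library, among them Rbfox3, Snap25 and Syp, so that the line lacks these markers of mature neurons. The 3 that were tested, Tubb3, Eno2 and Map2, were expressed, and they differed in which group was highest. Tubb3 averaged 14.0 FPKM in OGE, 10.8 FPKM in OGP and 7.95 FPKM in control cells. Eno2 averaged 4.14, 2.70 and 5.49 FPKM and Map2 1.34, 2.13 and 1.32 FPKM in the same groups. The summed level of the neuron markers was 18.6 to 22.7 FPKM in OGE, 16.0 to 16.7 FPKM in OGP and 14.0 to 16.7 FPKM in control cells. Astrocyte markers summed to 29.5 to 38.4 FPKM in OGE, 18.2 to 19.5 FPKM in OGP and 38.2 to 44.5 FPKM in control cells, with 5 of 7 under 0.5 FPKM throughout, and microglia markers to 9.02 to 10.2, 16.5 to 19.0 and 12.2 to 17.4 FPKM, also with 5 of 7 under it. Mesenchymal markers summed to 410.0 to 488, 464 to 532 and 701 to 1019 FPKM in the same groups, with 1 of 7 under 0.5 FPKM, while 5 of 6 oligodendrocyte and 5 of 5 endothelium markers stayed under it. These sums rest on few genes. Col1a1 made up most of the mesenchymal sum, at 369 FPKM in OGE, 383 FPKM in OGP and 777 FPKM in control cells. In the same list, Col3a1 rose in OGP against control and Nt5e rose in OGE against OGP. Tmem119 made up most of the microglia sum, and Gja1 with Slc1a3 most of the astrocyte sum. The part of these differences in the members' levels was not tested. Control replicate 1 stood apart from the other control libraries in several members. Where leaving it out ends a call or moves a member's value by over 1.5 times, the value without it or the range over all alternatives is given. The labels do not say whether libraries of a group came from separate cultures, so the p-values refer to differences among libraries only, which may be technical. Levels refer to the RNA of a whole dish, and a smaller share of cells that express a gene cannot be told apart from less RNA per cell.

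Stretches around the CARE core are shown because this is the sequence on which ATF4 and C/EBP proteins bind. The core was searched as TGATGNAA on both strands in the RefSeq promoters of build GRCm38.p6, which run from 250 bases before to 50 bases after each start site. All 10 members matched, with 11 promoters, since Atf5 has 2. A match was found in 4 members, Atf3, Chac1, Nupr1 and Trib3, each on the strand opposite to the gene. Over all, 4.51% of 27025 genes held one in any promoter, and 3.97% of 32851 promoters did. The capitals mark the core, which reads as its reverse complement on the gene's strand.
Atf3: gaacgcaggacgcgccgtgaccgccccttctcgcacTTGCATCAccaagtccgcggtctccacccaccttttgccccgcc
Chac1: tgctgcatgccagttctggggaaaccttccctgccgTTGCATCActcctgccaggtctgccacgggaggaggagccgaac
Nupr1: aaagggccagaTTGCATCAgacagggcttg
Trib3: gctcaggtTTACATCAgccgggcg

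The stretch of Atf3 lies at chr1:191183400-191183479 on the minus strand, that of Chac1 at chr2:119351013-119351092 on the plus strand and that of Nupr1 at chr7:126625562-126625591 on the minus strand. The Trib3 stretch lies at chr2:152344031-152344054 on the minus strand. Against the gene models of the files, the Atf3 stretch is intronic, that of Nupr1 lies in an exon of a longer transcript and is therefore shown with short flanks, that of Chac1 lies upstream of the gene and that of Trib3 at its upstream edge. The match began 110 bases before the start site in both Atf3 and Nupr1, 193 bases before it in Chac1, and 14 bases past it in Trib3. Atf3, Chac1 and Nupr1 held the same 8 bases. The CRE sequence TGACGTCA, the UPRE sequence TGACGTGG and the ERSE, which are bound by CREB-type factors, XBP1 and ATF6, were found in no promoter of a member, against 1.79%, 0.68% and 0.12% of all promoters. Of the 4 members with a match, Trib3 and Nupr1 rose in OGP against control, Trib3 and Chac1 fell in OGE against OGP, and Atf3 passed in no comparison. Of the members without a match, Atf4, Atf5 and Ddit3 rose in OGP against control and Sesn2 fell in OGE against OGP. Cebpb and Cebpg passed in neither in the main test. Sites outside these windows were not searched, and a link between a match and a change was not tested.

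In OGP, 5 of the 10 members rose against control cells and none fell, or 4 rose and 1, Cebpb, fell without control replicate 1. Of all genes tested, 6.38% rose and 5.74% fell, by an adjusted p of at most 0.05 in limma and a fold of at least 1.5. Those that rose with all libraries were Atf4, Atf5, Ddit3, Trib3 and Nupr1, and the median log2 fold change of the 10 members was 0.55, against 0.006 for all genes tested. All OGP libraries lay above all control libraries in 8 of 10 members, which was so for 20.3% of all genes, and below them in none of the members, against 22.6% of all genes. In OGE, 3 members fell against OGP, namely Trib3, Chac1 and Sesn2, and none rose, whereas 4.73% of all genes fell and 3.39% rose. At an unadjusted p under 0.05, 7 members were lower and 1 higher in OGE against OGP, and voom on the recovered reads called 3 lower and 1 higher, Cebpb. In OGP against control, 8 members were higher and 1 lower at that unadjusted p, and voom called 5 higher and 0 lower. Such unadjusted p-values were common, also for the gene lists below. In OGE against OGP, 4417 of the 13245 genes had a limma p no larger than that of Ddit3 (0.0443). In OGP against control, 5405 had one no larger than that of Cebpb (0.0463). Of all genes, voom called 617 higher and 679 lower in OGE against OGP, and 1048 and 889 in OGP against control. The members' median in OGE against OGP was -0.44, against 0.004 for all genes, and under quantile normalization it was -0.27, where Cebpb also rose. All OGE libraries lay below all OGP libraries in 7 members (22.0% of all genes) and above them in 1, Cebpb (23.3% of all genes).

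**Figure D1:**
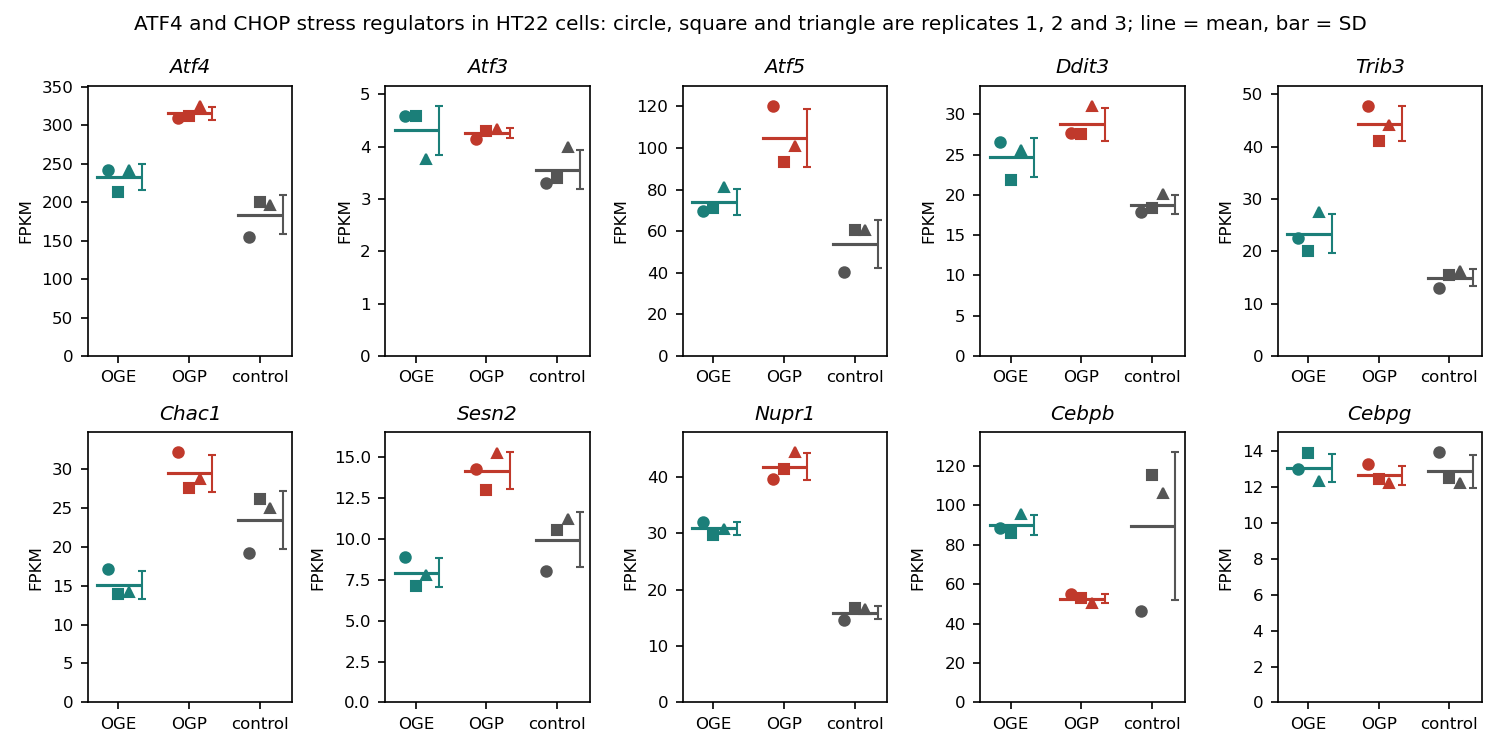
FPKM of the 10 members (vertical axes, each from 0) in the OGE, OGP and control libraries, with circles, squares and triangles for replicates 1, 2 and 3, lines for group means and bars for SD. All OGP libraries lay above all control libraries in 8 members (20.3% of all genes). They lay above all OGE libraries in 7 members (22.0% of all genes), Atf4, Atf5, Ddit3, Trib3, Chac1, Sesn2 and Nupr1. Control replicate 1 of Cebpb, at 46.5 FPKM, lay far below the other control libraries.

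Atf4 (ENSMUSG00000042406, mm10 chr15:80255184-80257541, plus strand) was the most abundant member, with only 1.22% of the genes tested at a higher mean. It had 310.1, 312 and 325 FPKM in the OGP libraries, against 154, 200.2 and 197 FPKM in control libraries. OGE cells had 243, 213 and 242 FPKM, below every OGP library and above every control library. Atf4 thus rose in OGP by 0.79 on the log2 scale (adjusted p = 0.00106 in limma, SE 0.11), a 1.72-fold ratio of means. In OGE against OGP its log2 fold change was -0.44 (adjusted p = 0.0228, SE 0.11), which passed the p threshold but not the fold of 1.5. Under quantile normalization that value was -0.21 (adjusted p = 0.0988) and passed neither. Against control cells it was 0.35 (adjusted p = 0.0488), again under that fold, and 0.23 without control replicate 1.

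Atf5 (ENSMUSG00000038539, chr7:44812256-44816658, minus strand) encodes a close relative of ATF4 whose message also carries small upstream reading frames. OGP libraries had 120.2, 93.2 and 101 FPKM, against 40.2, 60.5 and 60.7 FPKM in control libraries. OGE libraries, at 69.8, 71.3 and 81.3 FPKM, again fell between them without overlap. The log2 fold change of Atf5 was 0.97 in OGP against control (adjusted p = 0.00266 in limma, SE 0.17). For OGE against OGP it was -0.49 (adjusted p = 0.0642, SE 0.17), with a 95% confidence interval of -0.86 to -0.12, and -0.32 under quantile normalization. Against control cells the OGE value was 0.48, and 0.29 without control replicate 1. Atf5 shares 82 exon bases with Nup62 on the other strand, and since strand-specific counting is not stated, reads there cannot be assigned to either.

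Ddit3 (ENSMUSG00000025408, chr10:127290774-127296288, plus strand), the gene of CHOP, had 27.7, 27.5 and 31.0 FPKM in OGP, against 17.8, 18.4 and 20.1 FPKM in control libraries. Its level in OGE was 26.5, 21.9 and 25.5 FPKM, below all OGP libraries by a small margin and above all control libraries. Ddit3 rose in OGP by 0.60 on the log2 scale (adjusted p = 0.00181 in limma, SE 0.094), just past the fold of 1.5. Without control replicate 1 the estimate was 0.57 and without OGP replicate 3 it was 0.55, both under that fold. Between OGE and OGP the log2 fold change was -0.22 (adjusted p = 0.133), with a 95% interval of -0.43 to -0.01, and it was -0.14 without OGE replicate 2. A second ID of the same symbol, ENSMUSG00000116429, lies within the gene on the same strand and is listed at 0 in all 9 libraries. The gene also shares 68 exon bases with Mars on the other strand.

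Atf3 (ENSMUSG00000026628, chr1:191170296-191218039, minus strand) encodes a factor that is induced early in many kinds of stress and can repress its targets. It was the least abundant member, at 4.58, 4.58 and 3.77 FPKM in OGE, 4.15, 4.31 and 4.34 FPKM in OGP and 3.30, 3.39 and 4.0 FPKM in control libraries. OGP libraries lay above control libraries, but by a log2 fold change of 0.23 (adjusted p = 0.111 in limma, SE 0.10). The value for OGE against OGP was 0.01, with a 95% interval of -0.22 to 0.24, and 97.7% of all genes tested showed a larger difference in size.

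Cebpb and Cebpg encode C/EBP proteins with which ATF4 and CHOP can pair. Cebpb (ENSMUSG00000056501, chr2:167688915-167690418, plus strand) had 88.4, 86.1 and 95.6 FPKM in OGE, against 54.8, 52.8 and 50.2 FPKM in OGP. Control replicates 1, 2 and 3 had 46.5, 115 and 106 FPKM, so that the first of them lay below every OGP library and the others above every OGE library. With all libraries, Cebpb passed in no comparison of the main test. Its log2 fold change was -0.65 in OGP against control (adjusted p = 0.113 in limma, SE 0.28) and 0.77 in OGE against OGP (adjusted p = 0.0865, SE 0.28). In OGE against OGP it did pass under quantile normalization (0.92, adjusted p = 0.0312, limma) and with voom (0.80, adjusted p = 0.0403). The value for OGP against control was -0.42 without control replicate 2. In OGE against control, the log2 fold change of Cebpb was 0.12 (adjusted p = 0.803 in limma). Over the alternatives that value ran from -0.34 to 0.35, a change of sign, and Cebpb passed there in none of them. Without control replicate 1, Cebpb fell in OGP by 1.07 (adjusted p = 5.36e-05) and rose in OGE against OGP by 0.77 (adjusted p = 1.03e-04). With the 6 OGE and OGP libraries alone, the adjusted p of the same difference was 3.09e-04. Cebpb was thus the only member whose 3 OGE libraries all exceeded the OGP libraries. It shares 312 exon bases with Tmem189 on the other strand, a gene with a mean of 10.4 FPKM.

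Cebpg (ENSMUSG00000056216, chr7:35046422-35056573, minus strand) kept within 12.2 to 13.9 FPKM over the 9 libraries, and its groups overlapped in every comparison. Its log2 fold changes were -0.02 in OGP against control, with a 95% interval of -0.20 to 0.16, and 0.04 in OGE against OGP, with an interval of -0.14 to 0.22. These intervals leave out a change of 1.5-fold in either direction. Over the alternatives, the value for OGP against control ran from -0.06 to 0.03. For OGE against control it was 0.02, with a range of -0.02 to 0.12.

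Trib3 (ENSMUSG00000032715, chr2:152337422-152344032, minus strand) encodes a pseudokinase that binds ATF4 and restrains its activity. It had 47.8, 41.1 and 44.2 FPKM in OGP, against 13.1, 15.6 and 16.2 FPKM in control libraries. In OGE it had 22.6, 20.1 and 27.4 FPKM, and the 3 groups did not overlap at any point. Trib3 showed the largest change of the members in OGP, a log2 fold change of 1.54 (adjusted p = 6.74e-05 in limma, SE 0.13), which 0.936% of all genes exceeded in size. It fell in OGE against OGP by 0.92 on the log2 scale (adjusted p = 0.0012, SE 0.13) and stayed above control cells by 0.62 (adjusted p = 0.00665). That last difference missed the fold of 1.5 without control replicate 1 (0.53) and without OGE replicate 3 (0.51).

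Chac1 (ENSMUSG00000027313, chr2:119351229-119354381, plus strand) encodes an enzyme that breaks down glutathione, the main thiol that protects cells from oxidation. It had 17.1, 13.9 and 14.2 FPKM in OGE, against 32.1, 27.5 and 28.7 FPKM in OGP. Control libraries, at 19.2, 26.2 and 24.9 FPKM, lay between these groups and overlapped neither. Chac1 did not pass in OGP against control, where its log2 fold change was 0.33 (adjusted p = 0.0832 in limma, SE 0.13), or 0.20 without control replicate 1. It fell in OGE by 0.95 on the log2 scale against OGP (adjusted p = 0.00121, SE 0.13) and by 0.61 against control (adjusted p = 0.00825, SE 0.13). Against control the fold stayed under 1.5 without control replicate 2 (-0.53) or 3 (-0.57) and without OGE replicate 2 (-0.56) or 3 (-0.57).

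Sesn2 (ENSMUSG00000028893, chr4:132492032-132510501, minus strand) encodes Sestrin2, a stress-induced protein that senses leucine and holds back the growth kinase mTORC1. OGE libraries had 8.89, 7.15 and 7.79 FPKM, against 14.3, 13.0 and 15.3 FPKM in OGP. The level in control libraries was 8.08, 10.6 and 11.2 FPKM, which overlapped that of OGE. Sesn2 fell in OGE against OGP by 0.80 on the log2 scale (adjusted p = 0.00297 in limma, SE 0.13). In OGP against control it had a log2 fold change of 0.50 (adjusted p = 0.019, SE 0.13), under the fold of 1.5 with all libraries and past it, at 0.59, without control replicate 3. The value for OGE against control was -0.30 (adjusted p = 0.126).

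Nupr1 (ENSMUSG00000030717, chr7:126623249-126630861, minus strand) encodes a small chromatin-associated protein that is induced by many stresses. It had 39.6, 41.4 and 44.3 FPKM in OGP, against 14.6, 16.7 and 16.5 FPKM in control libraries. OGE cells had 32.0, 29.8 and 30.8 FPKM, apart from both. Nupr1 had the smallest p of the members in OGP against control, with a log2 fold change of 1.37 (adjusted p = 1.17e-05 in limma, SE 0.079). It remained above control cells in OGE by 0.94 (adjusted p = 5.01e-05, SE 0.079). OGE against OGP gave -0.43 (adjusted p = 0.0057, SE 0.079), which is under the fold of 1.5.

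**Figure D2:**
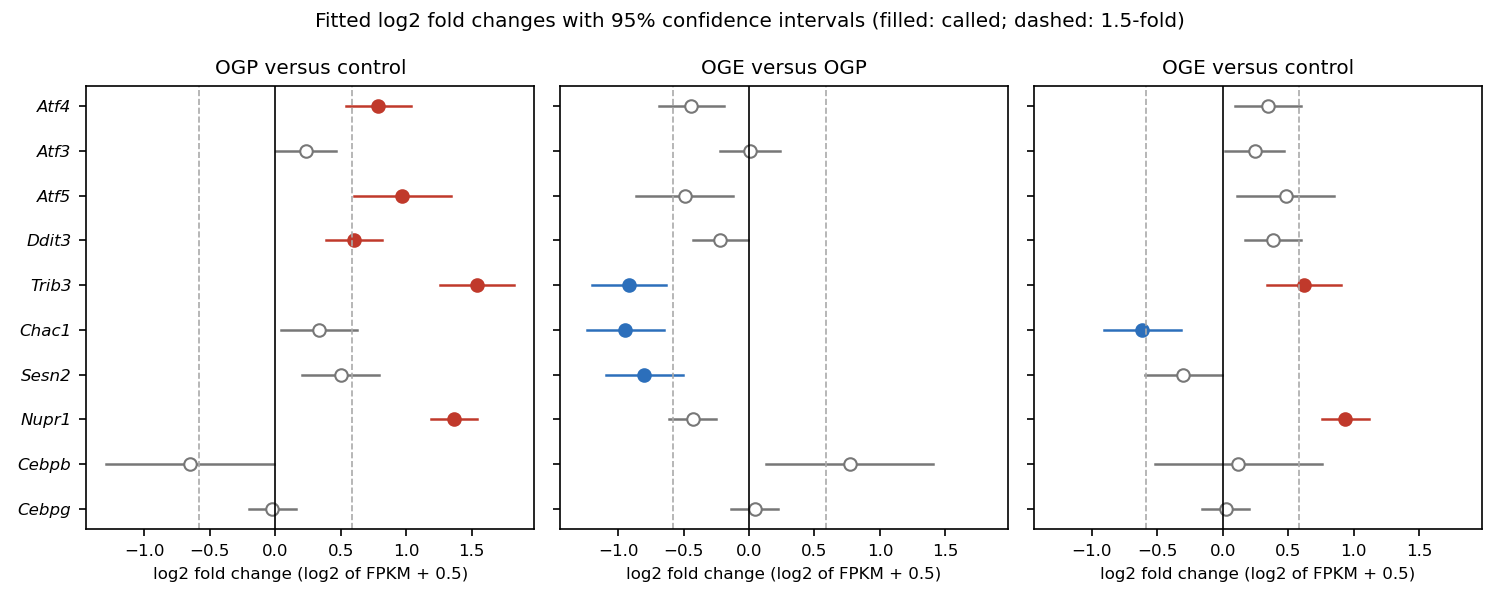
Log2 fold changes of the 10 members (horizontal axes, on log2 of FPKM + 0.5) with 95% confidence intervals in OGP against control, OGE against OGP and OGE against control; filled points passed the test and dashed lines mark a fold of 1.5. In OGE against OGP, the filled points of Trib3, Chac1 and Sesn2 lie between -0.95 and -0.80.

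OGE cells were also set against control cells, a comparison that shares its libraries with the others. There, 2 members were higher, Trib3 and Nupr1, and 1 was lower, Chac1, while 5.14% of all genes rose and 6.33% fell. OGE libraries lay wholly above control libraries in 5 members, Atf4, Atf5, Ddit3, Trib3 and Nupr1, against 18.6% of all genes, and wholly below them in Chac1, against 19.6%. The median of the 10 members was 0.30, against -0.003 for all genes. In the order of the group levels, Atf4, Atf5, Ddit3, Trib3 and Nupr1 were highest in OGP, lower in OGE and lowest in control cells. Chac1 was highest in OGP and lowest in OGE, and Sesn2 was highest in OGP with OGE and control overlapping.

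The level of a member relative to Atf4 in the same library does not depend on the factor by which a library was scaled, and it was examined after the values had been seen. Atf4 itself rose in OGP, so the ratio was wholly lower in OGP than in control libraries for 75.4% of all genes and wholly higher for 1.30%. It was wholly lower in OGE than in OGP for 4.30% and wholly higher for 62.4%. Trib3 amounted to 15.4%, 13.2% and 13.6% of the Atf4 level in OGP, against 8.47%, 7.77% and 8.22% in control libraries. In OGE the share was 9.32%, 9.41% and 11.3%, so that Trib3 moved further than Atf4 in both steps. Nupr1 amounted to 13.3% ± 0.632 (SD, n = 3) of Atf4 in OGE, 13.2% ± 0.424 in OGP and 8.72% ± 0.619 in control libraries, and its OGE and OGP libraries overlapped.

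Chac1 had a share of Atf4 of 7.06%, 6.52% and 5.85% in OGE, against 10.3%, 8.83% and 8.83% in OGP. Its share in control libraries was 12.5%, 13.1% and 12.6%, so that control replicate 1, which had the lowest FPKM of both genes among the controls, did not stand apart. Sesn2 followed the same order, with 3.41% ± 0.231 in OGE, 4.49% ± 0.272 in OGP and 5.41% ± 0.261 in control libraries (SD, n = 3 each) and no overlap. Ddit3 amounted to 10.6% ± 0.344 of Atf4 in OGE, 9.09% ± 0.387 in OGP and 10.3% ± 1.19 in control libraries, and Atf5 to 31.9% ± 2.71, 33.2% ± 4.83 and 29.0% ± 2.59 in the same groups. With 3 libraries against 3, a two-sided exact permutation test cannot give a p below 0.10, which is its value for each of the differences without overlap.

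**Figure D3:**
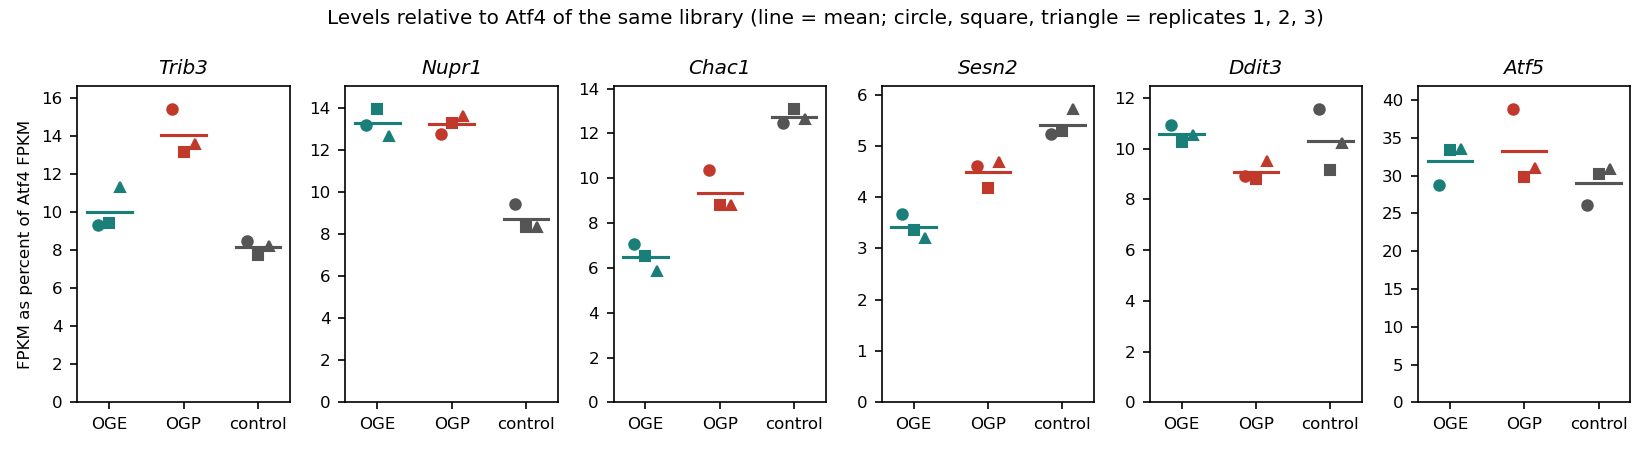
FPKM of 6 members as a percentage of the Atf4 FPKM of the same library (vertical axes, each from 0) in OGE, OGP and control cells, with a symbol for each replicate and lines for group means. Chac1 and Sesn2 are lowest in OGE, higher in OGP and highest in control cells, Trib3 is highest in OGP, and Nupr1 is at 13.3% in OGE and 13.2% in OGP.

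The courses of the members over the 9 libraries were compared by the root mean square difference of their centred log2 levels, as a description. Of 45 pairs, Atf4 and Ddit3 were closest, at 0.13 log2 units, then Chac1 and Sesn2 at 0.15 and Atf4 and Atf5 at 0.15. Trib3 and Cebpb were farthest apart, at 0.98. Of 10067 protein-coding genes that averaged at least 1 FPKM, those with the course most like Atf4 were Rpl10a (0.05), Hax1 (0.07) and Ethe1 (0.07). Rpl10a, which encodes a protein of the large ribosomal subunit, averaged 287 FPKM in OGE, 384 FPKM in OGP and 226 FPKM in control cells. Those most like Ddit3 were Naaladl1, Rpl30, Nars and Akr1b3, all at 0.08 to 0.09. Mgst3 (0.17) and Msln (0.18) were among those most like Trib3, at larger distances. The course of Nars, the asparaginyl-tRNA synthetase, was the only one of these that belongs to a gene listed as an ATF4 target.

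Genes that act upstream, on eIF2, passed about as often as all genes tested. Of 17 (subunits, kinases and their inhibitors, phosphatase subunits and exchange factors), 1 rose in OGP and none fell, against 6.38% and 5.74% of all genes, and in OGE against OGP none rose and 1 fell, Eif2ak2, against 3.39% and 4.73%. The fall of Eif2ak2 no longer passed without OGE replicate 3 or under quantile normalization. The gene that rose in OGP was Dnajc3, which encodes an inhibitor of eIF2 kinases, and 2 rose without control replicate 2. Voom gave the same counts, and at an unadjusted p under 0.05 there were 6 higher and 4 lower in OGP against control and 4 each way in OGE against OGP. Ppp1r15a encodes GADD34, the inducible subunit that directs a phosphatase to eIF2 and is itself a target of this response. It averaged 14.8 ± 1.09 FPKM in OGE, 21.2 ± 0.850 FPKM in OGP and 14.6 ± 2.14 FPKM in control cells (SD, n = 3 each). Its log2 fold changes of 0.53 in OGP (adjusted p = 0.00585, limma) and -0.50 in OGE against OGP (adjusted p = 0.0104) were under the fold of 1.5. Eif2ak2, the gene of the RNA-activated kinase PKR, averaged 37.6 ± 3.92 FPKM in OGE and 58.7 ± 2.45 FPKM in OGP, a log2 fold change of -0.64 (adjusted p = 0.00823, SE 0.13), which no longer passed without OGE replicate 3 or under quantile normalization. Eif2ak3, the gene of the endoplasmic reticulum kinase PERK, had log2 fold changes of 0.15 and 0.27 in the same comparisons. Impact, which restrains the amino acid sensor GCN2, averaged 21.0 ± 0.661 FPKM in OGE, 17.5 ± 0.447 FPKM in OGP and 12.4 ± 0.905 FPKM in control cells, and passed in OGE against control.

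Of 23 enzymes and transporters that ATF4 is known to switch on, 9 rose in OGP and none fell, against 6.38% and 5.74% of all genes. Voom gave the same counts, and the median log2 fold change was 0.46. Without control replicate 1, and also without OGP replicate 1, 7 of them rose. At an unadjusted p under 0.05, 17 were higher and 0 lower. Cth, which makes cysteine, averaged 16.5 ± 0.886 FPKM in OGP and 5.03 ± 0.326 FPKM in control cells (SD, n = 3 each), a log2 fold change of 1.62 (adjusted p = 8.08e-06 in limma, SE 0.089). Mthfd2, of mitochondrial folate metabolism, had a log2 fold change of 0.87 (adjusted p = 1.09e-04), and Slc7a1, a transporter of basic amino acids, of 0.90 (adjusted p = 3.78e-04). In OGE against OGP, 2 of the 23 rose and none fell, also with voom, against 3.39% and 4.73% of all genes. The median of the 23 was -0.21, or -0.11 under quantile normalization. Under an unadjusted p of 0.05, 12 of them were lower and 4 higher. Those that were lower all stayed under 1.5-fold. Some of these also missed the adjusted p in limma, such as Cth (0.0659) and Slc7a1 (0.0509), and others met it, such as Mthfd2 (0.0189) and Slc1a4 (0.0169). Both that rose are transporters. Slc7a11, the cystine carrier and also a known target of NRF2, averaged 9.25 ± 0.121 FPKM in OGE, 5.47 ± 0.365 FPKM in OGP and 2.37 ± 0.447 FPKM in control cells, and it rose in OGE against OGP by 0.71 (adjusted p = 0.00242, SE 0.11). Slc38a7, a glutamine transporter, rose by 0.63 in OGE against OGP (adjusted p = 4.40e-04) and had a log2 fold change of 0.04 in OGP against control. The 2 genes of the list that were not tested for low level were Cbs and Slc7a3.

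Of 13 genes that charge or export transfer RNA, 2 rose in OGP, Tars (0.70, adjusted p = 1.17e-04, limma) and Cars (0.62, adjusted p = 2.29e-04), and none fell. Of all genes, 6.38% rose and 5.74% fell there. Between OGE and OGP, none of the 13 passed in limma, where 3.39% of all genes rose and 4.73% fell, or with voom. The median of the 13 was -0.12, which turned to 0.04 under quantile normalization. At an unadjusted p under 0.05, 3 of them were lower, among them Tars at a log2 fold change of -0.23 (adjusted p = 0.0331), and 1 was higher. Of 12 other ATF4 targets, 3 rose in OGP and 1 fell, against 6.38% and 5.74% of all genes. Herpud1, of protein degradation at the endoplasmic reticulum, rose by 0.84 (adjusted p = 5.92e-04), and Ddit4, an inhibitor of mTORC1 that hypoxia also induces, fell by 1.11 (adjusted p = 0.00382) with 24.2 ± 2.90 FPKM in OGP and 53.9 ± 15.1 FPKM in control cells. Fgf21, a secreted hormone of the fasting response that was named after its values had been seen, rose in OGP by 0.88 (adjusted p = 0.007) and fell by 0.82 in OGE against OGP (adjusted p = 0.0134), with 1.2 ± 0.180 FPKM in OGE, 2.52 ± 0.546 FPKM in OGP and 1.15 ± 0.325 FPKM in control cells. Of the same 12, 2 rose and 2 fell in OGE against OGP, where 3.39% of all genes rose and 4.73% fell. Fgf21 was among those that fell. Vegfa, the vascular growth factor, rose by 0.94 (adjusted p = 1.25e-04) and Hmox1, the haem oxygenase gene that NRF2 also induces, by 0.88 (adjusted p = 1.45e-04), whereas the AP-1 type repressor Jdp2 fell by 0.83 (adjusted p = 0.00489).

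Of 11 genes of cell death and recovery that are linked to CHOP, none rose and 1 fell in OGP, with voom too. Of all genes, 6.38% rose and 5.74% fell, so that these 11 passed about as often as all genes tested. At an unadjusted p under 0.05, 1 was higher and 3 were lower. Without control replicate 1, 2 fell, and without control replicate 2, 1 rose and 1 fell. The gene that fell with all libraries was Bcl2l11, which encodes the death-promoting protein BIM. It averaged 4.97 ± 0.470 FPKM in OGE, 3.05 ± 0.182 FPKM in OGP and 5.55 ± 0.527 FPKM in control cells (SD, n = 3 each). It fell by 0.77 on the log2 scale in OGP against control (adjusted p = 6.41e-04, limma) and was the only gene of the list that passed in OGE against OGP, where it rose by 0.62 (adjusted p = 0.00256). That rise did not pass without OGP replicate 1, without OGE replicate 2 or with a pseudocount of 1. Of all genes, 3.39% rose and 4.73% fell in OGE against OGP. Bbc3, which encodes PUMA, averaged 3.04 ± 0.481 FPKM in OGE, 4.34 ± 0.822 FPKM in OGP and 3.93 ± 1.29 FPKM in control cells. Tnfrsf10b, a death receptor gene that CHOP is known to induce, had a log2 fold change of -0.40 in OGP against control (adjusted p = 0.0121), under the fold of 1.5.

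The other 2 arms of the unfolded protein response, which run through IRE1 and XBP1 and through ATF6, were set beside the members. Of 28 genes of these arms, 13 rose in OGP and none fell, in voom as well, against 6.38% and 5.74% of all genes. Their median was 0.51, with 22 higher and 0 lower at an unadjusted p under 0.05. In OGE against OGP, 1 rose, Ern1, and none fell, with the same counts in voom, against 3.39% and 4.73% of all genes. At an unadjusted p under 0.05, 8 were higher and 1 lower, and the median was 0.06, or 0.17 under quantile normalization. Hspa5, the chief chaperone of the endoplasmic reticulum, averaged 576 ± 16.1 FPKM in OGE, 589 ± 38.2 FPKM in OGP and 299 ± 28.5 FPKM in control cells (SD, n = 3 each). Manf, a secreted protein of the same response, averaged 83.5 ± 6.31, 83.9 ± 4.91 and 39.6 ± 1.26 FPKM in those groups, and Xbp1 averaged 59.0 ± 2.05, 58.9 ± 3.44 and 32.9 ± 2.84 FPKM. Ern1, the gene of IRE1, averaged 13.7 ± 1.11 FPKM in OGE and 8.44 ± 1.54 FPKM in OGP, a rise of 0.68 (adjusted p = 0.0059 in limma, SE 0.13). In OGE against control, 14 of the 28 genes rose, against 5.14% of all genes. The difference between these arms and the members was not tested.

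**Figure D4:**
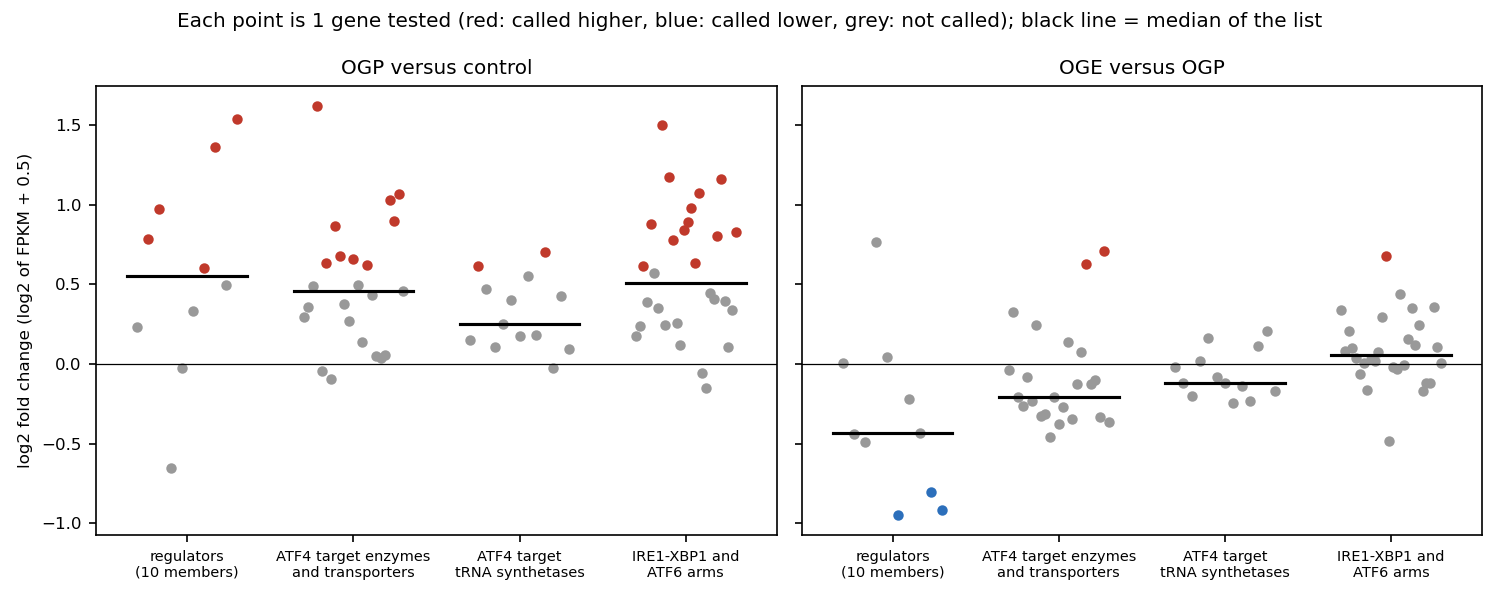
Log2 fold changes (vertical axis, on log2 of FPKM + 0.5) of the 10 members, 23 ATF4 target enzymes and transporters, 13 genes of transfer RNA charging and export and 28 genes of the IRE1-XBP1 and ATF6 arms, in OGP against control and OGE against OGP; each point is a gene, red or blue where it passed the test, and black lines are medians. In OGE against OGP the median was -0.44 for the members and 0.06 for the IRE1-XBP1 and ATF6 arms, or -0.27 and 0.17 under quantile normalization, which is not drawn.

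Relatives of the members by sequence family were counted in the same way. Of 20 tested, none rose in OGP and 3 fell, also with voom, against 6.38% and 5.74% of all genes. In OGE against OGP, 2 rose and 2 fell, also with voom, against 3.39% and 4.73% of all genes. At an unadjusted p under 0.05, 1 was higher and 7 lower in OGP against control. In OGE against OGP, 9 were higher and 5 lower at that unadjusted p. Cebpd, of the same family as Cebpb and Cebpg, averaged 59.5 ± 2.82 FPKM in OGE, 30.7 ± 1.22 FPKM in OGP and 102 ± 30.9 FPKM in control cells (SD, n = 3 each). It fell in OGP by 1.66 on the log2 scale (adjusted p = 4.09e-04 in limma, SE 0.20) and rose in OGE against OGP by 0.95 (adjusted p = 0.00947, SE 0.20). Trib1, a relative of Trib3, fell in OGP by 0.81 (adjusted p = 8.95e-04), with 6.72 ± 0.582 FPKM against 12.2 ± 1.89 FPKM in control cells, and Trib2 had a log2 fold change of -0.48. Fosl2, an AP-1 gene of the same leucine zipper class, averaged 18.3 ± 0.804 FPKM in OGE, 11.2 ± 1.05 FPKM in OGP and 19.6 ± 1.56 FPKM in control cells, and passed in both comparisons. Fos, the AP-1 gene with the smallest p of these relatives in OGE against OGP, averaged 1.11 ± 0.131 FPKM in OGE, 66.9 ± 6.42 FPKM in OGP and 62.3 ± 18.2 FPKM in control cells, and fell by 5.39 in OGE against OGP (adjusted p = 8.57e-07). The other gene of this list that fell there was Jdp2. Sesn1 and Sesn3, the relatives of Sesn2, had log2 fold changes of 0.05 and -0.31 in OGP against control and -0.41 and 0.26 in OGE against OGP, and neither passed.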

How the data were processed

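The authors aligned paired-end reads of 150 bases with HISAT2 2.0.5 to mm10, used featureCounts for reads per gene and deposited FPKM for 54532 gene IDs. How the FPKM were made from the counts is not given in the sources used. Reads in genes were recovered from FPKM and gene length, and in each library 100% of the values below a limit of 1000 reads came out whole to within 0.1 read. For the main test, log2(FPKM + 0.5) of the 13245 genes that averaged 0.5 FPKM or more went into limma 3.58.1 (R 4.3.3, variance trend on), with all 9 libraries and 3 groups in the same model. A fold change on that scale understates the change of low genes. Benjamini-Hochberg adjustment covered all genes tested. A gene passed, and was said to rise or fall, where its adjusted p did not exceed 0.05 and its fold reached 1.5. Values after ± are SD over 3 libraries. The test was tried on simulated data first.

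The members, the gene lists and the tests were chosen with earlier results of these data known. Besides the 10 members, up to 4 genes per list with the smallest p in each of OGP against control and OGE against OGP were eligible to be named, and genes outside that rule (Eif2ak3, Fgf21, Sesn1, Sesn3, Cbs and Slc7a3) were named after their values had been seen. Some genes stand in more than 1 list, such as Ppp1r15a, Dnajc3, Herpud1 and Jdp2. Marker lists of neurons and of other brain and mesenchymal cell types were read as levels, and single marker genes were named after their values had been seen. Alternatives were other pseudocounts, filters, folds and scalings, robust variances, 6 libraries at a time, a replicate block, protein-coding genes alone, voom on the recovered reads and leaving out each library. Leaving out control replicate 1 and OGE replicate 3 together was chosen after seeing the data. Of the genes with courses most like a member, 3 that the rule takes are not reported here. Promoters came from RefSeq. Cell assays and animal experiments were not analysed here.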

Additional observations from a re-analysis of the deposited data

How the results depend on the processing

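No log2 fold change of a member that passed the test turned its direction under any alternative run: of 690 values over the alternatives, 656 stayed on the same side of the threshold, 20 no longer passed and 14 newly passed. With no fold threshold, 3941 genes passed in OGP against control, 2750 in OGE against OGP and 3287 in OGE against control, and 5 members passed in each of the comparisons of OGE. With a fold of at least 2, 436, 393 and 530 genes passed in the same comparisons and 2, 0 and 0 members, in limma. Leaving out a library at a time gave 4 to 6 members in OGP against control, 3 to 4 in OGE against OGP and 1 to 3 in OGE against control, the lowest without OGE replicate 3, and 1340 to 1912, 889 to 1181 and 1342 to 2017 genes. Under quantile normalization Atf5 passed in OGE against control (0.62, adjusted p = 0.0181, limma), Chac1 did not (-0.56), and Cebpb passed in OGE against OGP (0.92, adjusted p = 0.0312). Under the same setting, Atf4 had -0.21 in OGE against OGP (adjusted p = 0.0988), and the members' median there was -0.27. The cause of these shifts was not tested. Deviations of libraries with the same replicate number correlated at -0.177 to 0.319, and those with different numbers at -0.346 to 0.264. These few correlations cannot settle whether libraries were paired by number, and the main test did not pair them. With a replicate block, 5, 3 and 3 members and 1581, 1043 and 1484 genes passed in the 3 comparisons. Atf3 rests on the fewest reads of the members, 124 to 177 per library.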
